A study of Mus musculus with 6 samples.

Results

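The genes of nuclear transport described here are the nucleoporins, the importins, transportins and exportins, and the regulators of the small GTPase Ran. Members were picked by a rule on gene symbols, and the rule was chosen with earlier results of these data known. Shares over the list are therefore descriptions. The rule took Nup, Ipo, Tnpo or Kpna followed by a digit, and Xpo followed by a digit or t. It also took Kpnb1, Cse1l, Ran, Ranbp1, Ranbp2, Rangap1 and Rcc1. A probe set (the group of array probes that reports 1 transcript) was used only where it carried exactly 1 symbol, and the probe set with the highest mean stood for a gene. This gave 49 members of 19935 measured genes, and no member was left out by a filter on low values. Nup35 was not analysed here. The genes now called Nup58 and Nup42 carry the older symbols Nupl1 and Nupl2 in the annotation and so fall outside the rule.

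Expression was measured on 6 Affymetrix arrays of osteoblastic cells from male mice: 2 arrays from mice lacking the Y1 receptor of neuropeptide Y (Y1KO) and 4 from wild-type mice (WT). Mice of both genotypes carried green fluorescent protein under a 3.6 kb piece of the rat alpha1(I)-collagen promoter. Marrow stromal cells from femora and tibias grew for 7 days, and the fluorescent cells were collected by flow sorting. The sources used here give neither the age and strain of the mice, nor how the receptor gene was inactivated, nor whether an array holds 1 mouse or a pool. The p-values therefore reflect only how far these arrays scatter, and part of that scatter may be technical.

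The nuclear pore is a large ring of nucleoporins set in the nuclear envelope. Its outer and inner rings form the scaffold, its central channel holds flexible proteins that make the permeability barrier, and filaments and a basket face the cytoplasm and the nucleus. Importins carry proteins inward and exportins carry proteins and RNAs outward. Direction is set by Ran, which is loaded with GTP by Rcc1 on chromatin and made to hydrolyse it by Rangap1 in the cytoplasm. Several of these proteins also serve the mitotic spindle and the kinetochore, and the pores of a cell are increased in number before it divides.

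The 6 arrays correlated at 0.9961 between the Y1KO arrays and at 0.9911 to 0.9958 among the WT arrays, against 0.9762 to 0.9875 across genotypes. The 7 measured osteoblast markers (Col1a1, Col1a2, Sp7, Alpl, Ibsp, Sparc and Pth1r) averaged 12.3 in both Y1KO arrays and 11.8 to 12.1 on the log2 scale in the WT arrays. Markers of lymphocytes, erythroid cells, granulocytes and endothelium averaged between 3.82 and 4.92 in every array, where the median of all genes was 5.67. Npy1r, which encodes the Y1 receptor, read 2.89 and 2.83 in Y1KO and 3.11, 2.84, 2.78 and 3 in WT, too dim to check the genotype labels. In these sorted bulk samples, fewer cells of a type and less RNA per cell cannot be told apart.

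In Y1KO cells 12 of the 49 members fell and 1 rose, Xpot, the exporter of transfer RNA. A member was called at an adjusted p under 0.05 from limma, a linear model with moderated variance fitted to all genes, with Benjamini-Hochberg adjustment over all 19935 genes. The falling members made up 24.5% of the list, against 6.64% of all genes called lower. The rising member made up 2.04%, against 6.1% of all genes called higher. A closer background is the 11961 genes at or above the 40th percentile of mean expression. There 12.2% were called lower, against 15 of the 46 members that remained. The median difference of the members was -0.18 on the log2 scale, Y1KO minus WT, against 0.01 over all genes, and 42 of the 49 differences were below 0. In 25 members both Y1KO arrays lay below every WT array, which held for 17.3% of all genes. In 2 members, Xpot and Ipo4, both lay above, which held for 17.5% of all genes. The changes were small, from 1.28-fold for Nup50 to 1.71-fold for Nup43 among those that fell. The number of calls depended on having both Y1KO arrays: 4 members fell without Y1KO replicate 1 (Nup43, Kpna2, Nup37 and Ipo9), and Kpna2 alone without Y1KO replicate 2. Either fit leaves 1 Y1KO array, so the spread then comes from the WT arrays alone and the lone array is assumed to vary like them. The differences of the 12 members lay between -0.995 and -0.29 in these fits, so all stayed below 0. The count was 6 without WT replicate 1 and 7 without WT replicate 2, and without moderation of the variance it was 0, with 20 members at an unadjusted p under 0.05, against 25 with it.

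**Figure D1:**
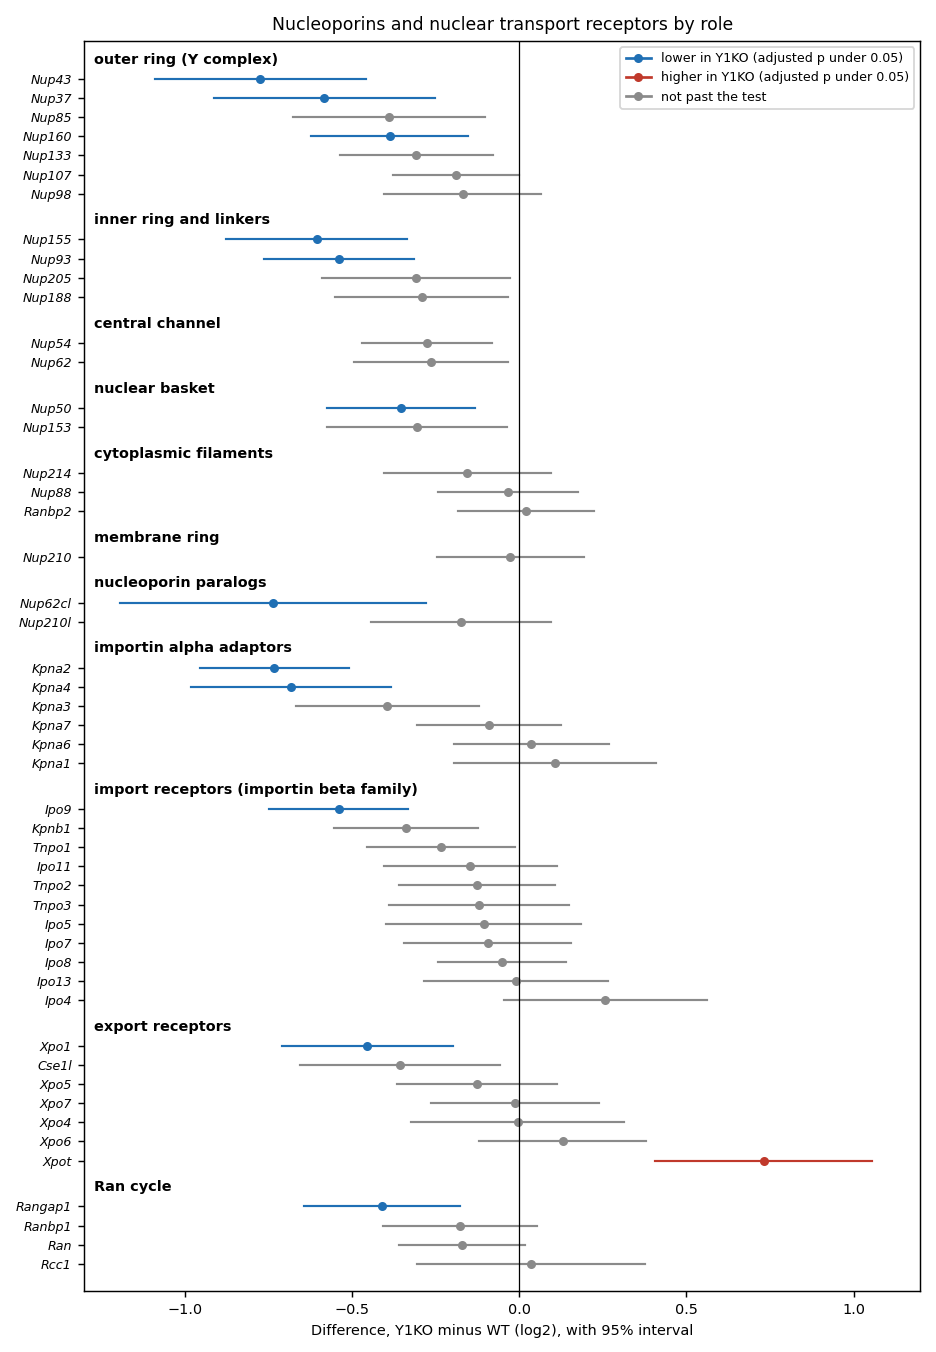
Difference between Y1KO and WT for each of the 49 members, on the log2 scale (x axis), with its 95% interval from the limma fit and grouped by role in the pore or in transport (y axis). All 7 outer ring and 4 inner ring members lie left of 0, the filament genes lie around 0, and Xpot lies at 0.73, the farthest to the right. Ring genes outside the symbol rule are not drawn.

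The regions around the transcription starts of the members were searched for short motifs, since 12 members fell together. RefSeq promoter windows of the GRCm38.p6 build (250 bases before the start and 50 after it) were matched by symbol for 40 of the 49 members, 11 of them among the falling genes. CCAAT, the motif bound by NF-Y, was found on either strand in 9 of these 11, in 12 of 28 members that were not called, and in 41.1% of all 27025 genes with a window. Rangap1 and Nup160 held no CCAAT in this window. The cell cycle motif CHR (TTTGAA or TTCGAA) was found in 3 of the 11 (Kpna2, Nup37 and Rangap1), in 8 of the 28 and in 21.7% of all genes. E2F sites (TTTCCCGC, TTTGGCGC, TTTCGCGC or TTTGCCGC) were found in none of the 11, in 3 of the 28 and in 2.6% of all genes. The ETS motif CCGGAAGT was found in 1 of the 11, in 3 of the 28 and in 4.31% of all genes. The E box CACGTG was found in 1 of the 11, in 7 of the 28, in the Xpot window and in 8.09% of all genes. The amino acid response motif TGATGNAA, added after the rise of Xpot was seen, was found in none of the 40 members and in 4.51% of all genes. All motifs were searched on both strands. Genes with several start sites have several windows and so more room for a match, and a match is not evidence of binding. The windows of 3 falling genes with different roles and of Xpot are shown, 5′ to 3′ on the gene's strand, with CCAAT in capitals for the falling genes and the E box in capitals for Xpot. They lie at chr11:106999476-106999775 (minus strand) for Kpna2, chr10:88146742-88147041 (plus strand, the first of 2 windows) for Nup37, chr11:23255791-23256090 (plus strand) for Xpo1 and chr10:121626283-121626582 (minus strand) for Xpot.
Kpna2: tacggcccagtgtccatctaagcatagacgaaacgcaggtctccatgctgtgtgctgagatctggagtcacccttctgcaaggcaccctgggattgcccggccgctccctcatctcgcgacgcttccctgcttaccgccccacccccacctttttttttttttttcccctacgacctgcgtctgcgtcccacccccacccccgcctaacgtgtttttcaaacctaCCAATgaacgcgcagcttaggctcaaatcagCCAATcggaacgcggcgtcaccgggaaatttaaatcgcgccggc
Nup37: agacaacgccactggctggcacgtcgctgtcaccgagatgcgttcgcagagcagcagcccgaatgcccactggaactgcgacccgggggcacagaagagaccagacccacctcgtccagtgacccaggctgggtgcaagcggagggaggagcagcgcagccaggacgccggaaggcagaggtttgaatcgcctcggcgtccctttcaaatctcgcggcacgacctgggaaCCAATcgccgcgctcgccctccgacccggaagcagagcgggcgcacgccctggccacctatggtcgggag
Xpo1: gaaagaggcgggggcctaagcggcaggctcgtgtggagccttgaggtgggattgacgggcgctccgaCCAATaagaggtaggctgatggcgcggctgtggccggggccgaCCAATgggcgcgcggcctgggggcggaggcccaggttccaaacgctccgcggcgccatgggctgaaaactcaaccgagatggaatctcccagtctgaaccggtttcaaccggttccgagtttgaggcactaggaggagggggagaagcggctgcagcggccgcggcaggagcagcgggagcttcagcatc
Xpot: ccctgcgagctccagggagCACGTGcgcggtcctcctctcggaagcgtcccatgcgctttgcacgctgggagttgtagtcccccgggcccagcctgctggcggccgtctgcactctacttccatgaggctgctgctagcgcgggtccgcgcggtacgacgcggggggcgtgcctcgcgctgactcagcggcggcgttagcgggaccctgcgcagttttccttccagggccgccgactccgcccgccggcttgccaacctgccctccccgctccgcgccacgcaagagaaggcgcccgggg
In the Kpna2 window the 2 CCAAT copies lie on the gene's own strand, close to the start and on either side of it, and in the Xpo1 window both lie upstream.

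The outer ring of the pore is a Y-shaped complex that coats the membrane and also sits at kinetochores in mitosis. It had 7 measured members under the symbol rule. Of these 3 fell (42.9%, against 6.64% of all genes), Nup43, Nup37 and Nup160. In all 7 the Y1KO arrays lay below every WT array, which held for 17.3% of all genes. This separation did not hold for every ring gene outside the rule: Sec13 rose by 0.56 and Seh1l overlapped at -0.11. In Ahctf1 both Y1KO arrays lay below every WT array, but its difference of -0.35 did not pass. Nup43, a propeller-shaped subunit at the short arms of the Y, read 6.31 and 5.86 in Y1KO cells, against 6.77, 7.03, 6.90 and 6.74 in WT cells. Both Y1KO arrays were low, replicate 2 the more so, and the WT arrays lay close together. Nup43 fell by 0.77 (SE 0.14, limma adjusted p = 0.00804), the largest decrease among the members. Nup37, another peripheral subunit of the Y, read 6.50 and 5.99 in Y1KO cells, against 6.78, 6.90, 6.94 and 6.69 in WT cells. It fell by 0.58 (SE 0.15, limma adjusted p = 0.0321), but its Y1KO replicate 1 was nearer to the lowest WT array than to Y1KO replicate 2, and the difference was -0.33 without Y1KO replicate 2. The call was lost without that array and without WT replicates 1, 2 or 3. Nup160, a core subunit of the long arm, read 8.05 and 7.88 in Y1KO cells, against 8.33, 8.48, 8.22 and 8.38 in WT cells. It fell by 0.39 (SE 0.10, limma adjusted p = 0.0411). Nup160 lost the call without either Y1KO array (-0.47 and -0.30), without WT replicates 1, 2 or 4, and with median-centred arrays. The scaffold partners Nup85, Nup133, Nup107 and Nup98 differed by -0.39, -0.31, -0.19 and -0.17, with limma adjusted p from 0.0855 to 0.386. The interval of Nup98, a gene whose transcript encodes both a channel protein and the scaffold protein Nup96, was -0.40 to 0.07.

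The inner ring, which anchors the channel proteins to the scaffold, had 4 measured members, and 2 of them fell (50%, against 6.64% of all genes). Nup155, which links the ring to the membrane, read 7.34 and 7.16 in Y1KO cells, against 7.94, 8.03, 7.69 and 7.76 in WT cells. The groups did not overlap, and Nup155 fell by 0.61 (SE 0.12, limma adjusted p = 0.0118). Nup93, the linker that holds the channel trimer in place, read 7.96 and 7.95 in Y1KO cells, against 8.51, 8.63, 8.35 and 8.48 in WT cells. Its Y1KO arrays nearly coincided, and it fell by 0.54 (SE 0.10, limma adjusted p = 0.00868). Without Y1KO replicates 1 and 2 in turn, the difference of Nup93 was -0.54 and -0.53 and that of Nup155 was -0.70 and -0.51, and neither gene was called with 1 Y1KO array. The large scaffold genes Nup205 and Nup188 differed by -0.31 and -0.29 and did not pass (limma adjusted p = 0.16 and 0.15). In each, both Y1KO arrays lay below all WT arrays, which held for 17.3% of all genes.

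The central channel genes Nup54 and Nup62, whose products carry the phenylalanine-glycine repeats that transport receptors bind, differed by -0.28 and -0.26 with limma adjusted p of 0.0725 and 0.144. Nup62 read 8.07 and 8.24 in Y1KO cells, against 8.37, 8.54, 8.31 and 8.44 in WT cells. Of the nuclear basket genes, Nup50, which helps release cargo from importin alpha, read 8.71 and 8.58 in Y1KO cells, against 9.10, 9.06, 8.93 and 8.91 in WT cells. Nup50 fell by 0.35 (SE 0.10, limma adjusted p = 0.0474), a call lost on leaving out any single array and with median-centred arrays. Nup153, which tethers the basket to the pore, differed by -0.31 (SE 0.12, limma adjusted p = 0.146).

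The 3 cytoplasmic filament genes did not pass the test. Ranbp2, the largest nucleoporin and a binding site of Rangap1, read 9.26 and 9.11 in Y1KO cells, against 9.11, 9.20, 9.14 and 9.21 in WT cells, so the groups overlapped. Its difference was 0.02, with a 95% interval of -0.18 to 0.22. Nup88 and Nup214, partners in the export platform, differed by -0.03 and -0.16, with intervals of -0.24 to 0.17 and -0.40 to 0.09. Decreases as large as that of Nup43, the largest among the members, therefore lie outside all 3 intervals. The interval of Nup214 still includes differences like those of the called genes Nup50 (-0.35) and Nup160 (-0.39).

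Nup210, a membrane nucleoporin of differentiating muscle and nerve cells, read 4.35 and 4.48 in Y1KO cells, against 4.54, 4.34, 4.50 and 4.39 in WT cells, below the median of all genes and overlapping. Nup62cl, a paralog of Nup62 on chromosome X, read 4.69 and 5.03 in Y1KO cells, against 5.57, 5.43, 5.31 and 6.07 in WT cells. It fell by 0.74 (SE 0.20, limma adjusted p = 0.046), with the widest spread among the WT arrays of the falling members (SD 0.34) and a level at percentile 45.7 of all genes, where an array understates changes. The call was lost without WT replicate 1 and without either Y1KO array (-0.57 and -0.91). Nup210l, a paralog of Nup210 known from the testis, was measured by 9 probe sets between 2.95 and 5.1, and none of them passed the test (smallest limma adjusted p = 0.0694, over all single-symbol probe sets).

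**Figure D2:**
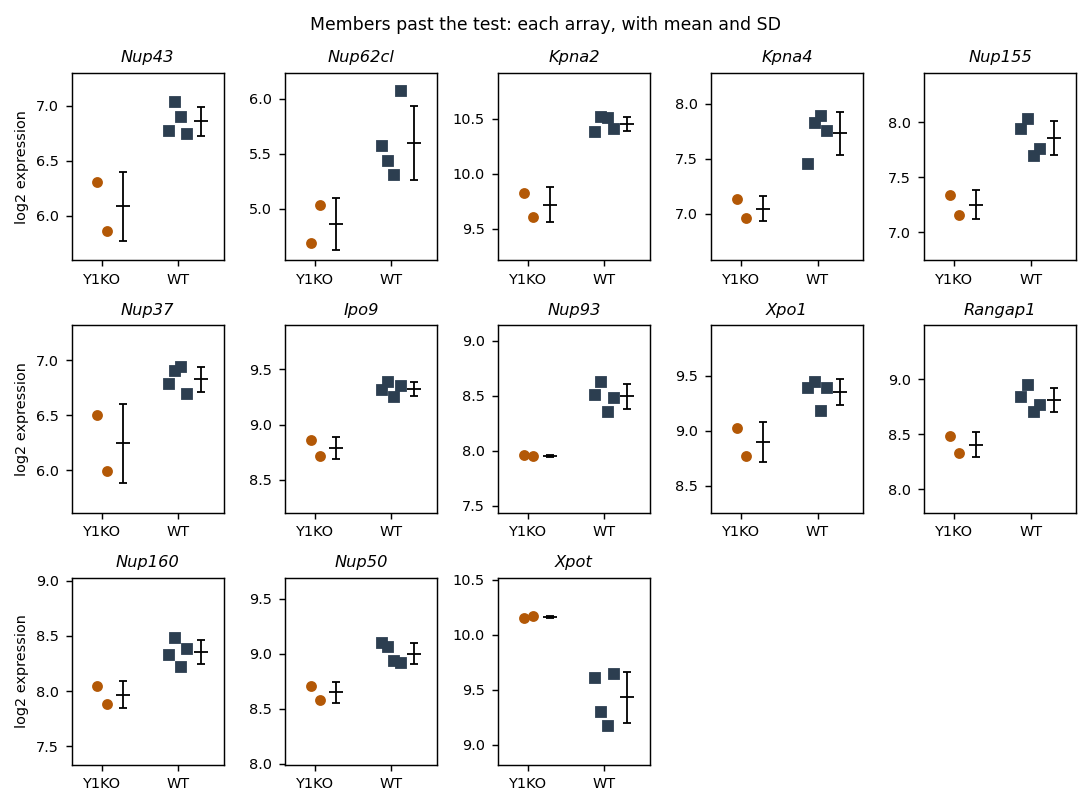
Log2 expression (y axis) of the 13 members past the test in each Y1KO array (circles) and WT array (squares), with the mean and SD of each genotype beside the points. Every panel spans the same number of log2 units, and in each the Y1KO arrays lie outside the WT range, below it in 12 genes and above it for Xpot.

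The importin alpha adaptors read the classical nuclear localisation signal of a cargo and bind importin beta. Of the 6 measured, 2 fell (33.3%, against 6.64% of all genes). Kpna2, an adaptor with high levels in proliferating cells, read 9.83 and 9.61 in Y1KO cells, against 10.38, 10.52, 10.51 and 10.41 in WT cells. The WT arrays were tight, both Y1KO arrays lay well below them, and Kpna2 fell by 0.73 (SE 0.10, limma adjusted p = 0.00254), a 1.66-fold decrease. It was the member with the smallest p, and leaving out any single array did not end its call. Its promoter window, printed above, holds 2 CCAAT copies. Kpna2 has 3 probe sets and a processed copy in the genome (Kpna2-ps), so transcripts of the copy could add to the signal. The other probe sets of Kpna2 differed by -0.72 and -0.75. Kpna4, an adaptor of another subfamily, read 7.13 and 6.96 in Y1KO cells, against 7.45, 7.82, 7.89 and 7.75 in WT cells. Kpna4 fell by 0.68 (SE 0.13, limma adjusted p = 0.0108) and lost the call without either Y1KO array (-0.77 and -0.60). Its closest relative Kpna3 differed by -0.39 (SE 0.12) and did not pass (limma adjusted p = 0.07). The adaptors of the remaining subfamily, Kpna1 and Kpna6, did not pass and differed by 0.11 and 0.04, with intervals of -0.19 to 0.41 and -0.20 to 0.27. The oocyte adaptor gene Kpna7 was dim and differed by -0.09.

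Of the 11 import receptors of the importin beta family, 1 fell (9.09%), a share near the 6.64% of all genes. Ipo9, a carrier of histones and ribosomal proteins, read 8.86 and 8.71 in Y1KO cells, against 9.31, 9.39, 9.25 and 9.35 in WT cells. It fell by 0.54 (SE 0.09, limma adjusted p = 0.00622), and lost the call without Y1KO replicate 2, at -0.47. Kpnb1, importin beta itself, read 10.29 and 10.06 in Y1KO cells, against 10.49, 10.58, 10.48 and 10.51 in WT cells. Both Y1KO arrays lay below the tight WT group, and the difference of -0.34 (SE 0.10) stood just beyond the threshold at a limma adjusted p of 0.0508. It passed with quantile normalization, with trend and robust options, with array weights and among the brighter genes. Tnpo1, the receptor of RNA-binding proteins, differed by -0.23 (limma adjusted p = 0.18). The other carriers, Ipo5, Ipo7, Ipo8, Ipo11, Ipo13, Tnpo2 and Tnpo3, differed by -0.15 to -0.01, and each interval included 0. Ipo4, a histone carrier, was the one receptor with both Y1KO arrays above all WT arrays, at 9.62 and 9.59, against 9.46, 9.48, 9.04 and 9.42. Its difference of 0.26 (SE 0.13, limma adjusted p = 0.294) was 0.15 without WT replicate 3, its lowest array.

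The 7 export receptors went in both directions. Xpo1 (CRM1), the main exporter of proteins with a leucine-rich signal, read 9.02 and 8.77 in Y1KO cells, against 9.39, 9.44, 9.18 and 9.39 in WT cells. It fell by 0.45 (SE 0.11, limma adjusted p = 0.031) and lost the call without WT replicates 1, 2 or 4 and without either Y1KO array (-0.58 and -0.33). Xpot, which carries mature transfer RNA to the cytoplasm, read 10.15 and 10.17 in Y1KO cells, against 9.61, 9.30, 9.17 and 9.64 in WT cells. The Y1KO arrays nearly coincided above a scattered WT group, and Xpot rose by 0.73 (SE 0.14, limma adjusted p = 0.0114), a 1.66-fold increase. Its promoter window stands above. The size of the rise changed little without Y1KO replicate 1 or 2 (0.74 and 0.72), but the limma adjusted p was then 0.0846 and 0.113. Cse1l, which returns importin alpha to the cytoplasm, read 9.81 and 9.51 in Y1KO cells, against 10.05, 10.21, 9.81 and 10.01 in WT cells. Its difference of -0.36 (SE 0.13) did not pass (limma adjusted p = 0.128), and Y1KO replicate 1 met the lowest WT array. Xpo5, the exporter of microRNA precursors, Xpo7, Xpo4 and Xpo6, the exporter of actin, differed by -0.13, -0.01, -0.0039 and 0.13, and all 4 intervals included 0.

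In the Ran cycle 1 of 4 members fell (25%, against 6.64% of all genes). Rangap1, the activator of GTP hydrolysis by Ran, read 8.49 and 8.33 in Y1KO cells, against 8.84, 8.95, 8.70 and 8.77 in WT cells. It fell by 0.41 (SE 0.10, limma adjusted p = 0.033) and lost the call on leaving out any array other than WT replicate 3, with differences of -0.49 to -0.33. Ran read 10.09 and 10.01 in Y1KO cells, against 10.18, 10.22, 10.25 and 10.23 in WT cells. The genotypes did not overlap, but the difference of -0.17 (SE 0.08) did not pass (limma adjusted p = 0.252). Ranbp1, a cofactor of Rangap1, read 10.57 and 10.47 in Y1KO cells, against 10.70, 10.83, 10.72 and 10.54 in WT cells, and differed by -0.18 (limma adjusted p = 0.35). Rcc1, the nucleotide exchange factor, read 8.02 and 7.83 in Y1KO cells, against 8.11, 8.04, 7.58 and 7.82 in WT cells, a full overlap with a difference of 0.04 (95% interval -0.31 to 0.38).

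Within a genotype the arrays were not evenly placed. Y1KO replicate 2 lay below Y1KO replicate 1 in 42 of the 49 members, against 48.2% of all genes. Among the WT arrays, replicate 3 was the lowest in 34 members (69.4%), against 35.6% of all genes, and replicate 2 the highest in 29 (59.2%), against 27.7%. The mean over all members, relative to its WT mean, was -0.16 and -0.29 in Y1KO replicates 1 and 2 and 0.03, 0.09, -0.11 and -0.02 in WT replicates 1 to 4. The set means parted the genotypes clearly for the inner ring, at -0.35 and -0.52 in Y1KO and -0.15 to 0.16 in WT. They also did so for the outer ring members, a set without Sec13 and Seh1l, at -0.29 and -0.51 in Y1KO and -0.06 to 0.13 in WT. They overlapped for the import receptors, at -0.08 and -0.20 in Y1KO and -0.16 to 0.09 in WT, and for the export receptors.

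**Figure D3:**
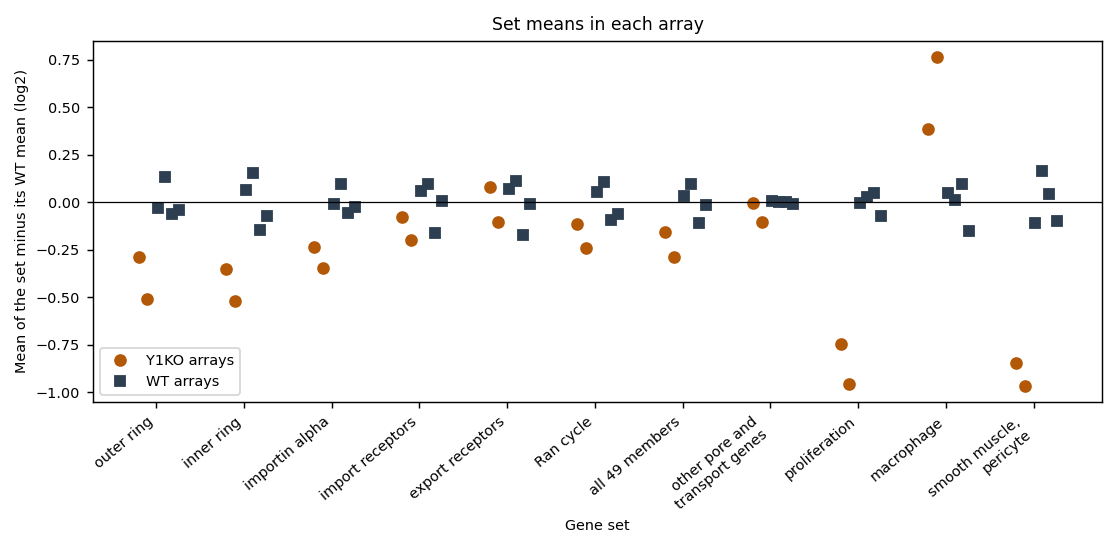
Mean log2 expression of each gene set (x axis) in each array, relative to the WT mean of that set (y axis), for Y1KO arrays (circles) and WT arrays (squares). The pore rings lie between -0.29 and -0.52 in Y1KO, the proliferation genes at -0.75 and -0.96, and the macrophage markers at 0.38 and 0.76.

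Markers of dividing cells and of other cell types differed between the same arrays. All 23 measured proliferation genes fell, against 6.64% of all genes, with a median of -0.86. Their mean was -0.75 and -0.96 in Y1KO replicates 1 and 2, against -0.07 to 0.05 in WT. No member fell as far as that median. Of 11 macrophage markers 8 rose (72.7%, against 6.1% of all genes), while Lyz1, Cd14 and Itgam did not pass, at 0.63, -0.07 and -0.0016. The mean level of the 11 was 5.67 and 6.05 in Y1KO, against 5.14 to 5.39 in WT. Of 11 smooth muscle and pericyte markers 8 fell (72.7%, against 6.64% of all genes) and 1 rose (9.09%, against 6.1%). The mean level of these 11 was 8.18 and 8.06 in Y1KO, against 8.91 to 9.19 in WT. The part of dividing, macrophage and contractile cells in the members' differences was not tested.

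Ratios between relatives within an array are free of any shift common to that array, and they were read as descriptions, since the pairs were chosen after the values were seen. The log2 ratio of Kpna2 to Kpna1, relative to its WT mean, was -0.76 and -0.92 in Y1KO and -0.22 to 0.35 in WT. That of Kpna2 to Kpna6 was -0.70 and -0.83 in Y1KO and -0.18 to 0.18 in WT. No test of the difference between adaptors was run. The ratio of Xpot to Xpo1 was 1.05 and 1.32 in Y1KO and -0.22 to 0.17 in WT, and its ratio to Xpo5 was 0.80 and 0.92 in Y1KO and -0.29 to 0.22 in WT. The ratio of Rangap1 to Rcc1 was -0.46 and -0.44 in Y1KO and -0.20 to 0.19 in WT.

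**Figure D4:**
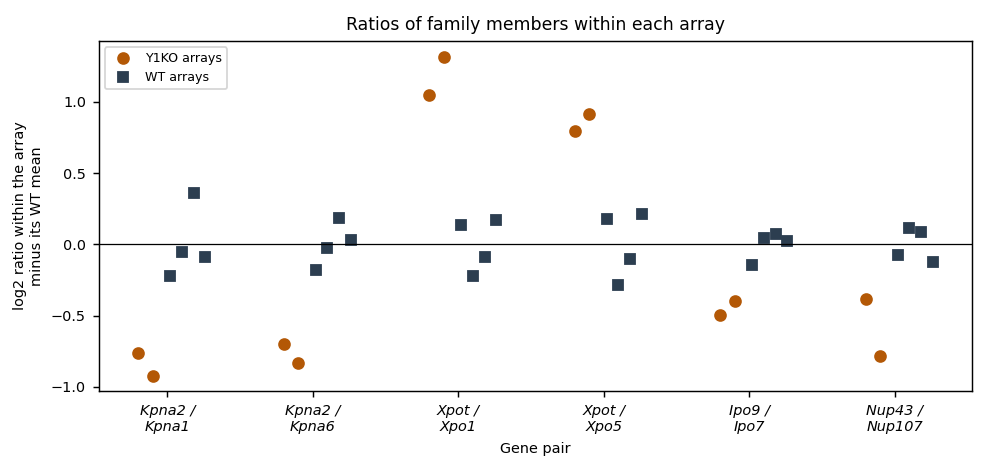
Log2 ratio of 6 pairs of related genes (x axis) in each array, relative to the WT mean of the ratio (y axis), for Y1KO arrays (circles) and WT arrays (squares). In every pair both Y1KO arrays lie outside the WT range, above it for Xpot over Xpo1 and Xpo5 and below it for the other 4 pairs. Each pair includes a called member and was chosen after the values were seen, so this separation is a description only.

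Other genes of the pore and of RNA export stand outside the symbol rule. Of 35 measured, 3 fell (8.57%, against 6.64% of all genes) and 1 rose (2.86%, against 6.1%), with a median difference of -0.04. The share that fell was thus near that of all genes. Ranbp17, a relative of Xpo7, fell by 0.88 (SE 0.14, limma adjusted p = 0.00455), at a dim level (percentile 45.4 of all genes). Nxt1, the cofactor of the messenger RNA exporter Nxf1, fell by 0.43, and the export adaptor gene Alyref fell by 0.33, while Nxf1 itself differed by -0.11. Sec13 rose by 0.56 (SE 0.10, limma adjusted p = 0.00676); its product is shared between the outer ring and the vesicle coat of the endoplasmic reticulum. Seh1l, another gene of the Y complex, differed by -0.11. Nupl1, the third gene of the channel trimer with Nup54 and Nup62, differed by 0.23 (limma adjusted p = 0.168), with both Y1KO arrays above all WT arrays. Of 16 nuclear envelope genes 4 fell (25%, against 6.64% of all genes), with a median of -0.21. Lmnb1, a B-type lamin, fell by 1.05 (SE 0.10, limma adjusted p = 0.00085), Syne2, a linker to the cytoskeleton, by 1.68, the lamin-binding genes Tmpo and Emd by 0.75 and 0.59, and Lmna, the A-type lamin, differed by 0.07.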

How the data were processed

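Expression was measured in 2 Y1KO and 4 WT samples of sorted osteoblastic cells. The values deposited by the authors are log2 expression for 28815 probe sets. Per the submitters' processing notes RMA and limma were used; versions, order, genome build and probe annotation have no source here. Array medians lay between 5.30 and 5.32 in Y1KO and between 5.32 and 5.37 in WT, so the values were used as deposited. Precision is limited by the number of arrays.

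Gene names came from the public repository's platform annotation, which can be old: 21780 probe sets carried 1 symbol, 1605 several and 5430 were not listed. All 49 members matched the RefSeq table of GRCm38.p6 by symbol. Y1KO was compared with WT by lmFit and eBayes in limma 3.58.1 (R 4.3.3), two-sided, with genotype only in the model, and the script was tested on simulated data. The members, roles and gene lists were chosen with earlier results of these data known. Values in every array were to be given for the 10 members with the largest decrease and the 10 with the largest increase among those called, the called member of smallest p of each role, and Ran, Ranbp1, Rangap1, Rcc1, Kpnb1, Cse1l and Xpo1; other members shown by array were picked after their values were seen. The 15 alternatives changed normalization, filter, probe set rule, variance model, array weights, block or arrays; 1 of them, with all single-symbol probe sets as units, was added after seeing the data.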

Additional observations from a re-analysis of the deposited data

Results flagged for a closer look

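Of the 49 members checked, 2 had a WT array far from the other 3 by Dixon's test, where chance alone gives about 1 in 20. Ipo4 read 9.04 in WT replicate 3, against 9.42 to 9.48 in the other WT arrays. Nup214 read 7.16 in WT replicate 4, against 7.37 to 7.41 in the others. Neither gene passed the comparison of Y1KO with WT.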

How the results depend on the processing

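The median member difference was -0.24 to -0.15 over the 15 alternatives, against -0.18, while the members' median in single WT arrays had an SD of 0.097. The count of 12 falling members stayed within 1.5 times under the other normalizations, the filter, the probe set rules, trend and robust options and array weights (10 to 16). Without moderation 0 members fell and 0 rose, 0 other pore and transport genes were called, and 344 of all genes were. With array weights 8 other pore and transport genes were called, against 4. With the replicate number as a block, 7 members fell, and Kpna4, Nup160, Nup37, Nup50 and Rangap1 lost the call. The deviations of same-numbered arrays correlated at 0.01 for number 1 and -0.20 for number 2. The deviations of the 2 Y1KO arrays mirror each other, so these values cannot decide whether the number marks a pairing. The main fit did not use the number. Leaving out 1 array gave 1 to 11 falling and 0 to 1 rising members, 0 to 6 other pore and transport genes and 487 to 2462 called genes. Signs turned only for members that were not called: with quantile normalization Ipo13 (0.016), Ranbp2 (-0.0021), Xpo4 (0.001) and Xpo7 (0.014), with median-centred arrays Ipo13 (0.015), Xpo4 (0.020) and Xpo7 (0.012), with array weights Rcc1 (-0.022), and with the block Kpna1 (-0.022), Kpna6 (-0.064) and Rcc1 (-0.15). With 1 array left out, the differences ranged from -0.078 to 0.048 for Ipo13, -0.13 to 0.13 for Xpo4, -0.11 to 0.080 for Xpo7, -0.21 to 0.026 for Ipo7, -0.0083 to 0.081 for Kpna6, -0.091 to 0.039 for Nup210, -0.10 to 0.036 for Nup88, -0.056 to 0.099 for Ranbp2 and -0.066 to 0.13 for Rcc1. The cause was not tested.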
